A study of Bos taurus with 9 samples.

Results

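The comparison described here sets bovine blastocysts of the group named Nanuq against those of the group named Cryotop, 2 groups labelled by cooling device. It takes the 6 of the study's 9 RNA sequencing libraries that carry these labels, 3 for each device, and covers every gene in the deposited table. The 6 libraries were chosen by their treatment label alone. The 3 libraries labelled CTR were left out of the gene filter, the scaling and the estimate of spread, except in 1 alternative fit of all 9 libraries.

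A blastocyst is the stage at which the embryo has formed a fluid-filled cavity, an outer layer of trophectoderm that will build the placenta and an inner cell mass that will build the fetus. It hatches when it leaves the zona pellucida, the glycoprotein shell around the egg and early embryo. Vitrification cools embryos so fast, in concentrated cryoprotectant, that the water around and within the cells turns into a glass and not into ice. Cryotop is a thin strip that carries embryos in a very small volume of medium. Faster cooling is of interest because less cryoprotectant, which is itself harmful to cells, is then needed.

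Each library of both groups came from a pool of 5 to 10 embryos which had hatched in the 24 hours after thawing. All pools thus hold embryos that lived through cooling and thawing and then hatched, and embryos that did not hatch are not represented. The labels give neither breed, embryo sex, embryo age nor cryoprotectant, and say that the study had a standard and an ultrafast cooling group without saying which device belongs to which. They do not say whether the 3 pools of a device came from separate embryo productions, so the tests measure variation from pool to pool, and this may in part be technical. In pooled embryos, fewer cells of a type and less RNA per cell cannot be told apart. Genes carry Ensembl identifiers, which neither the deposited table nor the reference table used here pairs with symbols. Genes are therefore given by identifier with no function, and the labelled stage could not be checked against marker genes.

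Total counts were 20813599, 22529555 and 17591464 in Nanuq pools 1, 2 and 3, and 3970666, 20253721 and 16343398 in Cryotop pools 1, 2 and 3. Cryotop pool 1 had the fewest counts of the 6. Cryotop pools 1 and 3 stood apart from the other 4 libraries in the number of genes detected and in their distance from other pools, and the values without each of them are given beside those results. The table lists 27607 genes, of which 10019 were without counts in all 6 libraries and 13152 passed the filter on low counts. These tested genes held 99.9% of all counts. Levels are given in counts per 1M (CPM) after scaling with the trimmed mean of M-values (TMM), a factor that evens out differences in composition between libraries. By their mean over the 6 libraries, 4017 tested genes lay at 50 CPM or more, 5758 at 5 to 50 CPM and 3377 under 5 CPM.

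The question put to the genes was whether embryos that hatched after cooling with the Nanuq device carried different transcript levels from those cooled with Cryotop. No gene passed the threshold. In the quasi-likelihood test of edgeR, with p-values adjusted by Benjamini and Hochberg's method, 0 of 13152 genes (0%) had an adjusted p under 0.05, and the smallest adjusted p was 1.00. An unadjusted p under 0.05 was found for 469 genes, 3.57% of those tested. This is fewer than the 657.6 genes that evenly spread p-values would put there. DESeq2 was run without the filter on low counts and gave 17558 genes an adjusted p. It called 0, its smallest adjusted p being 0.0969, and put 735 genes at an unadjusted p under 0.05. On the 13152 filtered genes limma voom called 0 as well, its smallest adjusted p being 0.187, and put 737 at an unadjusted p under 0.05.

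ENSBTAG00000005475 had the smallest p-value of all tested genes. It measured 550.2, 661 and 567 CPM in Nanuq pools 1, 2 and 3, and 234, 340.1 and 430 CPM in Cryotop pools 1, 2 and 3. The lowest Nanuq pool lay above the highest Cryotop pool, and Cryotop pool 1 was the lowest of the 6. The means were 593 ± 59.7 CPM in Nanuq and 335 ± 98.0 CPM in Cryotop (SD, n = 3 each), a 1.77-fold difference with a 95% interval from 1.35-fold to 2.30-fold. The log2 fold change was 0.82 ± 0.178 (SE) with an adjusted p of 1.00 by edgeR, 0.0969 by DESeq2 and 0.187 by limma voom. Over 19 alternative fits, of which 1 held all 9 libraries and gave the upper end, its adjusted p ran from 2.63e-05 to 1, and it was the 1 gene that limma voom called when libraries were weighted by quality (adjusted p = 0.0314). The value of 2.63e-05 came from the unfiltered edgeR fit, in which the spread of a gene on its own had almost no weight. The CTR libraries measured 351, 601 and 579 CPM without TMM scaling, a range that reaches into that of both devices.

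ENSBTAG00000010517 was also higher in each Nanuq pool than in any Cryotop pool, with little spread within either device. It measured 196, 207 and 220.2 CPM in Nanuq and 144, 129.7 and 146 CPM in Cryotop, in pool order. Its means of 208 ± 11.9 and 140.0 ± 8.89 CPM (SD, n = 3 each) differed 1.49-fold, with a 95% interval from 1.22-fold to 1.81-fold. The log2 fold change was 0.57 ± 0.131 (SE), and its adjusted p by edgeR was 1.00, by DESeq2 0.219 and by limma voom 0.751. In CTR it measured 164 ± 30.3 CPM (SD, n = 3, without TMM scaling), between the means of both devices.

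ENSBTAG00000030933 was the gene with the smallest p-value among those lower in Nanuq. It measured 8.65, 6.58 and 9.22 CPM in Nanuq and 25.9, 19.3 and 22.3 CPM in Cryotop. These levels rest on 145 to 182 counts in each Nanuq library and on 103, 395 and 372 counts in the Cryotop libraries. No Nanuq pool reached the lowest Cryotop pool, and the spread within each device was narrow (8.15 ± 1.39 and 22.5 ± 3.30 CPM, SD, n = 3 each). The log2 fold change was -1.46 ± 0.332 (SE), with a 95% interval from -2.17 to -0.75. Its adjusted p was 1.00 by edgeR, 0.219 by DESeq2 and 0.751 by limma voom. In CTR it measured 18.0, 6.87 and 16.9 CPM without TMM scaling. The second of these lay within the Nanuq range, and the other two lay between the ranges of both devices.

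ENSBTAG00000008718 followed, at 21.4, 11.4 and 14.9 CPM in Nanuq and 47.0, 28.7 and 37.9 CPM in Cryotop. Here the pools of each device were spread more widely, and the highest Nanuq pool still lay below the lowest Cryotop pool. The log2 fold change was -1.24 ± 0.30 (SE), from -1.89 to -0.60 in its 95% interval. Its adjusted p was 1.00 by edgeR, 0.430 by DESeq2 and 0.761 by limma voom. Its CTR level of 14.4 ± 6.55 CPM (SD, n = 3, without TMM scaling) was near the Nanuq mean of 15.9 ± 5.05 CPM. The 4 genes were taken for their small p-values, so their lack of overlap between devices follows partly from that choice.

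**Figure D1:**
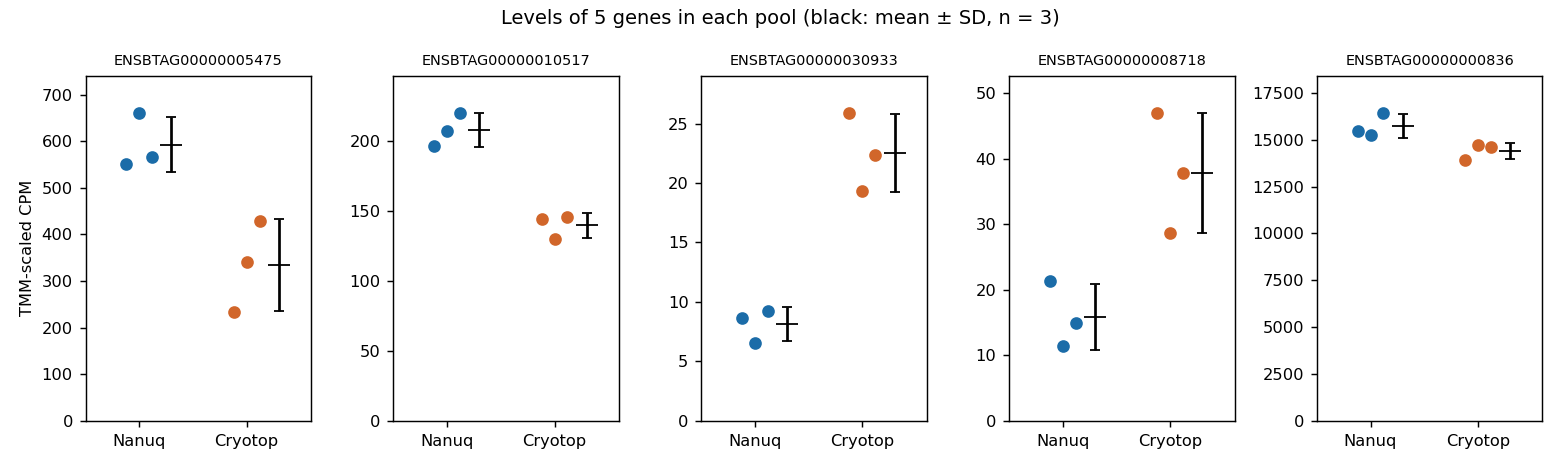
Level in TMM-scaled CPM (vertical axes, each from 0) of 5 genes in each Nanuq pool (blue) and each Cryotop pool (orange), with the mean ± SD of 3 pools in black. The first 4 genes had the smallest p-values in each direction and the fifth, ENSBTAG00000000836, had the narrowest interval; in all 5 the pools of the devices do not overlap, and 0 of the 5 passed the adjusted threshold.

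The abundant genes give the closest bounds on a difference between the devices. Of the 4017 genes at 50 CPM or more, 3959 (98.6%) had a 95% interval of the fitted change that lay within 2-fold in both directions. For 2813 of them (70.0%) it lay within 1.5-fold. The median absolute log2 fold change in this class was 0.125 and the median standard error was 0.171, so the typical difference between devices was smaller than its own error. Fitted changes past 1.5-fold numbered 19 higher and 12 lower in Nanuq, or 0.772% of the class. A single gene, ENSBTAG00000052217, lay past 2-fold, and it is described below with the pool that set its value.

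Less abundant genes were bounded less tightly. At 5 to 50 CPM, 2846 of 5758 genes (49.4%) were bounded within 2-fold, with a median standard error of 0.337 on the log2 scale. In this class 65 genes were fitted more than 2-fold higher and 89 more than 2-fold lower in Nanuq, 2.67% of the class. Under 5 CPM, 0 of 3377 genes were bounded within 2-fold and the median standard error was 1.51, so a difference of that size was not detectable there at this depth and spread.

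**Figure D2:**
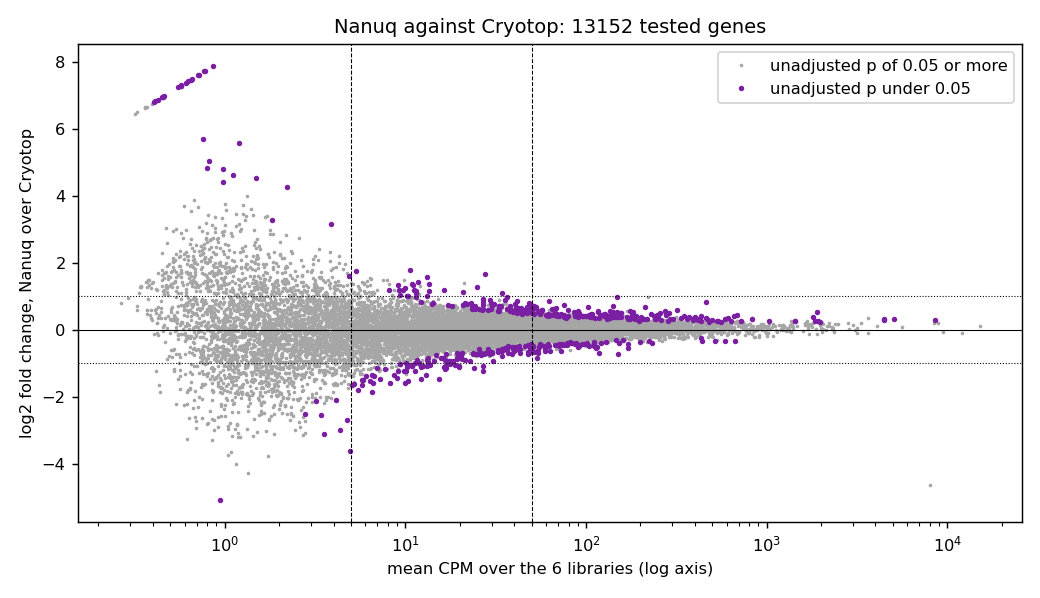
Fitted log2 fold change, Nanuq over Cryotop (vertical axis), against mean CPM over the 6 libraries (horizontal log axis) for the 13152 tested genes; dashed lines mark 5 and 50 CPM, dotted lines a 2-fold change, and purple points an unadjusted p under 0.05. Above 50 CPM the points close in on 0, with 1 gene past 2-fold, and the slanted row at the upper left holds genes with 0 counts in all Cryotop pools, whose fitted values depend on a prior count.

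The most abundant genes were largely the same in both devices. Of the 100 genes with the highest mean level in Nanuq, 94 were also among the 100 highest in Cryotop. The 106 genes in either list had a median absolute log2 fold change of 0.111. The 95% interval lay within 1.5-fold for 101 of them and within 2-fold for 105. By edgeR 12 of the 106 (11.3%) had an unadjusted p under 0.05. This share was 5.50% among all genes at 50 CPM or more and 3.57% among all tested genes. Apart from ENSBTAG00000052217, the fitted log2 fold changes of the 106 genes lay between -0.21 and 0.54. ENSBTAG00000000836, the most abundant gene in 5 of the 6 libraries, had the narrowest interval of all genes at 50 CPM or more. It measured 15487, 15265 and 16436 CPM in Nanuq and 13924, 14707 and 14591 CPM in Cryotop. Each Nanuq pool was above each Cryotop pool, by a fitted 1.09-fold with a 95% interval from 0.956-fold to 1.25-fold (unadjusted p = 0.179 and adjusted p = 1.00 by edgeR).

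ENSBTAG00000052217 was the most abundant gene in the sixth library, Cryotop pool 1. It held 4.56% of the counts there, at 45545 CPM, and 99.1 and 392 CPM in Cryotop pools 2 and 3. In Nanuq it measured 732, 882 and 239 CPM. The groups overlapped, and the fitted log2 fold change of -4.63 had a 95% interval from -10.95 to 1.68. Without Cryotop pool 1 its log2 fold change was 1.34, with the direction reversed, so this 1 library decided it. With a replicate block it was -0.89 and by limma voom -0.14, both with an adjusted p of 0.99 or more. The unfiltered edgeR fit, in which a gene's own spread had almost no weight, gave an adjusted p of 3.63e-196. CTR levels also varied, with 562, 387 and 3815 CPM without TMM scaling.

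The libraries of both devices did not overlap for 1380 tested genes, 10.5% of all. In 809 of them (6.15%) all Nanuq pools were higher and in 571 (4.34%) all were lower. With library size alone as the scale the split was 664 higher and 689 lower. At 50 CPM or more the counts were 319 higher and 140 lower, or 219 and 223 when filtered and scaled on such genes alone. At 5 to 50 CPM they were 269 and 303, and under 5 CPM 221 and 128. The 221 and the 809 include 26 genes with 0 counts in all Cryotop pools, which passed the filter through their Nanuq values alone. These shares are the background of the comparison, and nothing about single genes is read from them.

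Which direction was the more frequent depended on the scaling and the genes it was taken from. Among the 469 genes at an unadjusted p under 0.05, 277 (2.11% of tested genes) were higher and 192 (1.46%) were lower in Nanuq, so that 59.1% were higher. With library size alone as the scale the split turned to 202 higher and 248 lower, or 44.9% higher. With DESeq2-style size factors in edgeR it was 249 and 218. Genes at 50 CPM or more gave 158 higher and 63 lower within the fit of all tested genes. Fitted and scaled on such genes alone they gave 100 and 100. The median log2 fold change of all tested genes moved between -0.02 and 0.02 over these 3 scalings of the full table, so shifts that small were enough to turn the split.

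Removing libraries also moved the number of genes at an unadjusted p under 0.05. The filter passed a different number of genes in each fit. Without Cryotop pool 2 there were 1095 of 13604 tested, with 802 higher and 293 lower in Nanuq. Without Cryotop pool 1 there were 573 of 13959 (317 higher and 256 lower), and without Cryotop pool 3 there were 663 of 13915 (364 and 299). Without Nanuq pool 1 there were 436 of 13580 (258 and 178). Without Nanuq pool 2 there were 221 of 13637 (113 and 108) and without Nanuq pool 3 there were 300 of 13763 (176 and 124). In each of these fits edgeR called 0 genes at an adjusted p under 0.05. With Cryotop pools 1 and 3 both removed, the single Cryotop pool left is assumed to vary like the Nanuq pools. No count of genes is therefore given for that fit. Its median absolute log2 fold change at 50 CPM or more was 0.119, against 0.125 with all 6 libraries.

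Distances between pools of different devices lay within the range of those between pools of the same device. Distance was taken as the median absolute log2 difference over the 4017 genes at 50 CPM or more. It was 0.138 to 0.184 for the 3 pairs of Nanuq pools and 0.214 to 0.292 for the 3 pairs of Cryotop pools. The 9 pairs between devices lay at 0.143 to 0.253. The longest distance of all 15 was between Cryotop pools 1 and 3.

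Cryotop pool 2 was nearer to each Nanuq pool than to either of the other Cryotop pools. Its distances were 0.161, 0.145 and 0.143 to Nanuq pools 1, 2 and 3, and 0.221 and 0.214 to Cryotop pools 1 and 3. Cryotop pool 1 lay 0.235 to 0.253 from the Nanuq pools and Cryotop pool 3 lay 0.226 to 0.235 from them. With each library thinned at random to 3970666 counts, the total of the smallest, Cryotop pool 2 was 0.173, 0.158 and 0.157 from the Nanuq pools and 0.225 and 0.221 from the other Cryotop pools. The order for this pool was therefore the same at equal depth.

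**Figure D3:**
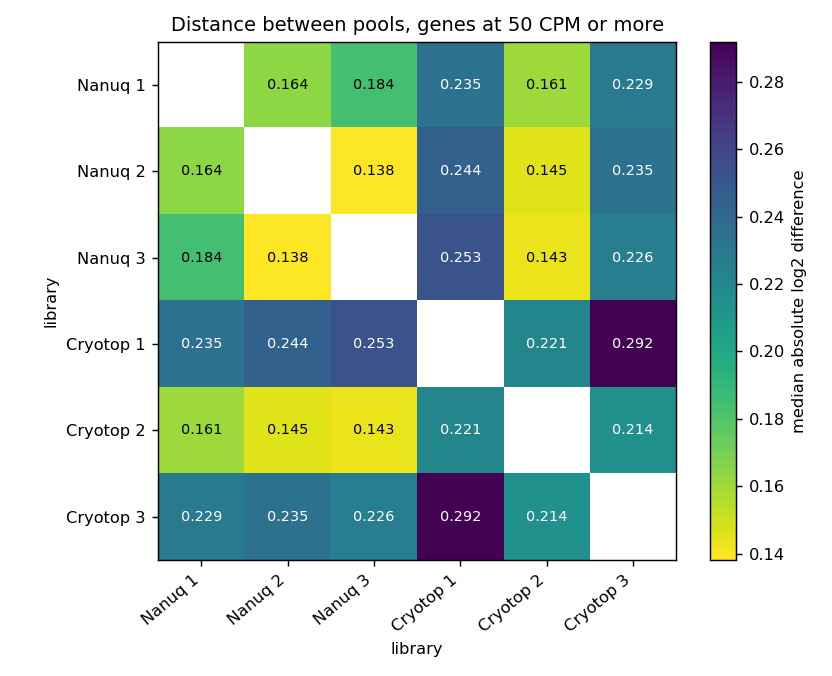
Median absolute log2 difference between each pair of libraries over the 4017 genes at 50 CPM or more, with both axes listing the 3 Nanuq and 3 Cryotop pools and darker colours for longer distances. Cryotop 2 falls with the Nanuq pools at 0.143 to 0.161, and the darkest cell is Cryotop 1 with Cryotop 3 at 0.292.

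The spread of single genes between pools was larger in Cryotop. At 50 CPM or more the median SD of log2 CPM was 0.208 over the Cryotop pools and 0.143 over the Nanuq pools, and 68.4% of genes had the larger SD in Cryotop. At 5 to 50 CPM the medians were 0.434 and 0.281, with 68.8% of genes larger in Cryotop. Fewer counts in Cryotop pool 1 can add to this. With counts thinned to equal totals the medians were 0.211 in Cryotop and 0.149 in Nanuq at 50 CPM or more. Over all tested genes they were 0.352 and 0.245 thinned (11136 genes), and 0.419 and 0.272 at full totals (13152 genes). No thinned value was taken for 5 to 50 CPM alone. With 1 Cryotop pool left out, the Cryotop value was lower without pool 1 or pool 3 than without pool 2. Without pool 1 the median SD in Cryotop at 50 CPM or more was 0.152, without pool 3 it was 0.157 and without pool 2 it was 0.206. Each of these is over 2 pools and is not set against the 0.208 over 3, since the number of pools alone can change a median SD. Leaving out 1 Nanuq pool gave 0.0973 to 0.130 for Nanuq, also over 2 pools and below each of the Cryotop values.

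Cryotop pools 1 and 3 also held most of the extreme values. Cryotop pool 1 was the library farthest from the median of the 6 in 1301 of these 4017 abundant genes (32.4%), and Cryotop pool 3 for 1159 (28.9%). The other 4 libraries were farthest for 282 (Cryotop pool 2) to 539 genes (Nanuq pool 1). Of the 58 genes in this class that were not bounded within 2-fold, Cryotop pool 1 was farthest for 24 and Cryotop pool 3 for 17.

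Large departures in abundant genes were rarely shared between Cryotop pools. Compared with the mean of the Nanuq pools on the log2 scale, 45 genes at 50 CPM or more were over 2-fold lower in Cryotop pool 1, 5 in pool 2 and 22 in pool 3. Over 2-fold higher were 9, 2 and 6 genes. Of the 71 genes lower in at least 1 Cryotop pool, 70 were so in 1 pool, 1 in 2 pools and 0 in all 3. All 17 genes that were higher were so in a single pool. Seen from the other side, 1, 6 and 3 genes were over 2-fold above the Cryotop mean in Nanuq pools 1, 2 and 3, and 2, 1 and 5 genes were below it.

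**Figure D4:**
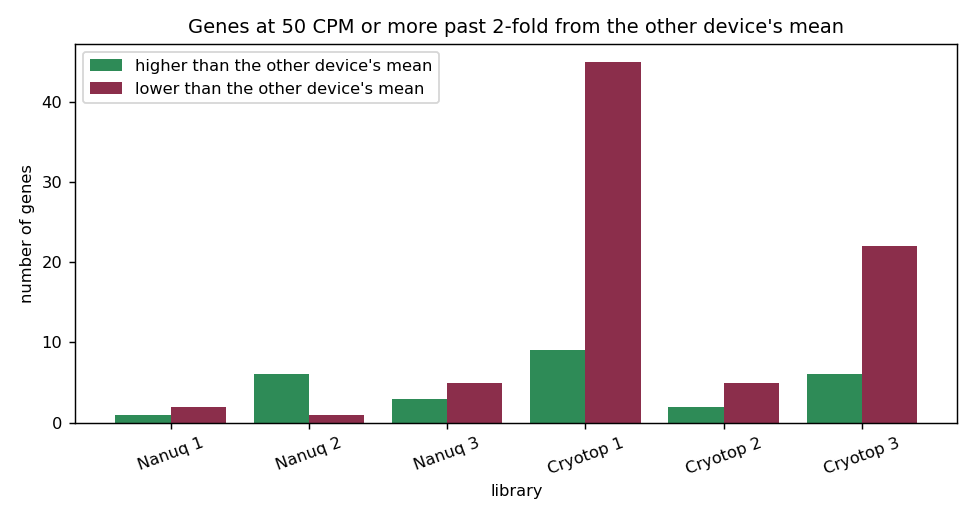
Number of genes at 50 CPM or more (vertical axis, from 0) that lay over 2-fold above (green) or below (red) the mean of the other device's pools, for each of the 6 libraries. Cryotop 1 has 45 genes below and Cryotop 3 has 22, where the other 4 libraries have 1 to 5.

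Among genes at 5 to 50 CPM departures were more frequent. In 1074 of 5758 genes 1 Cryotop pool was over 2-fold below the Nanuq mean, in 100 genes 2 pools were and in 3 genes all 3 were. Over 2-fold above it were 1 pool in 575 genes, 2 pools in 77 and all 3 in 12. On the other side, Nanuq pools were over 2-fold above the Cryotop mean in 265 genes for 1 pool, 109 for 2 and 121 for all 3, and below it in 387, 73 and 11 genes. Departures on that side were thus often shared by the Nanuq pools. These means are taken on the log2 scale, where 1 pool at or near 0 counts lowers the mean of its device.

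Gene detection differed between Cryotop pools more than between devices. Genes with at least 1 count, expected in a random draw of 3970666 counts, were 13837, 14313 and 14045 in Nanuq pools 1, 2 and 3 and 12104, 14664 and 12409 in Cryotop pools 1, 2 and 3. Cryotop pool 2 had the most of all 6 libraries and Cryotop pools 1 and 3 the fewest. The means were 14065 ± 239 in Nanuq and 13059 ± 1398 in Cryotop (SD, n = 3 each), with a 2-sided exact permutation p of 0.4 (0.7 adjusted over 7 library measures), where 3 pools against 3 cannot give less than 0.1. The difference between devices of 1006 genes became 528 without Cryotop pool 1, 681 without Cryotop pool 3 and 1809 without Cryotop pool 2.

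With at least 10 counts required, the deficit was not seen. The expected numbers were then 11057, 10957 and 10837 genes in Nanuq and 11166, 11046 and 11004 in Cryotop (exact permutation p = 0.3, adjusted 0.7). The Cryotop mean of 11072 ± 84.1 was slightly above the Nanuq mean of 10950 ± 110.2 (SD, n = 3 each). The lower numbers of Cryotop pools 1 and 3 were thus seen for genes with at least 1 count and not for those with at least 10.

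**Figure D5:**
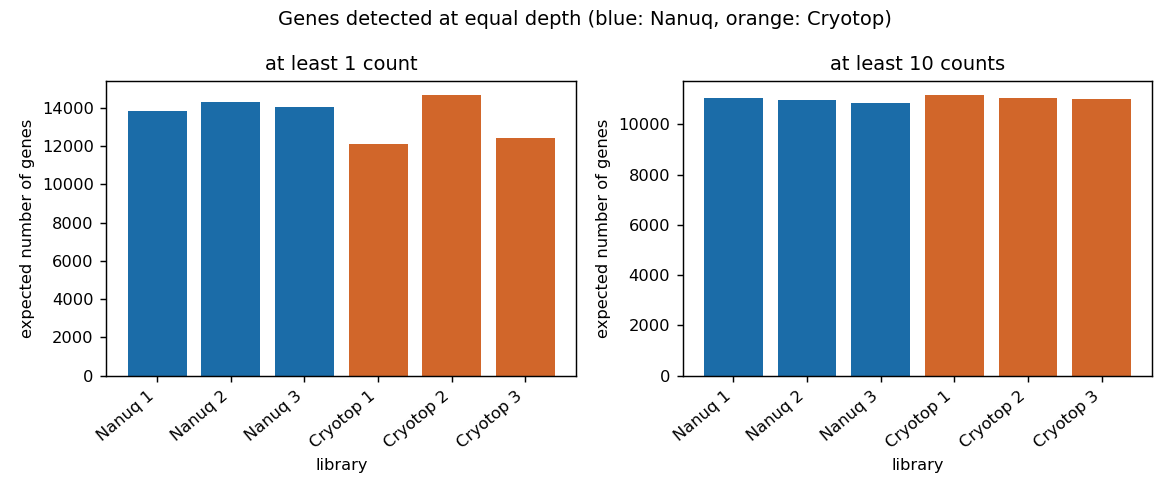
Expected number of genes (vertical axes, from 0) in a draw of 3970666 counts from each library, with at least 1 count on the left and at least 10 counts on the right, for Nanuq (blue) and Cryotop (orange). Cryotop 1 and 3 are lowest on the left at 12104 and 12409, and the 6 libraries are level on the right, from 10837 to 11166.

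Some genes of low level were seen in every pool of one device and in no pool of the other. Counts in all 3 Nanuq pools and 0 in all 3 Cryotop pools were found for 82 genes, and the reverse for 8. Thinning to equal totals gave 76 and 10. The 82 genes averaged at most 1.71 CPM in Nanuq, with a median of 0.715 CPM before TMM scaling. With 0 counts a gene may still be present at up to 0.756 CPM in Cryotop pool 1, 0.148 CPM in pool 2 and 0.184 CPM in pool 3, taking 3 counts as the limit and counting error alone. Of the 82 genes, 26 passed the filter on low counts, and they passed through their Nanuq values alone. Nothing is read from their p-values, since this selection largely fixed them. Of the 26, 20 are among the 277 genes counted above as higher in Nanuq at an unadjusted p under 0.05. Leaving out a pool cannot lower the 82 or the 8, since fewer libraries must then meet the condition, so only the size of each rise is informative. Without Cryotop pool 2, 576 genes were seen in all Nanuq pools and in no Cryotop pool, and without Cryotop pool 1 or 3 it was 105 or 108. Without Nanuq pool 1, 2 or 3 the 82 became 225, 157 and 183. The 8 became 64 without Cryotop pool 1, 44 without Cryotop pool 3 and 14 without Cryotop pool 2.

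Single zeros in better expressed genes fell in Cryotop too. Of 9747 genes with counts in all Nanuq pools and a Nanuq mean of 5 CPM or more, 149 were at 0 in 1 Cryotop pool, 11 in 2 and 0 in all 3. Of 9765 such genes defined in Cryotop, 8 were at 0 in 1 Nanuq pool and 0 in 2 or more. The numbers by library cover all 27607 genes, with no floor on level, and were not taken at equal depth. Cryotop pool 1 had the fewest counts, which alone adds zeros. At 0 with counts in all 5 other libraries were 803 genes in Cryotop pool 1 and 499 in Cryotop pool 3. This number was 19 in Cryotop pool 2 and 22 to 65 in the Nanuq pools. The part that these pools' detection has in the gene results above was not tested beyond the values given without them.

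The devices overlapped in how strongly counts were concentrated in few genes. The 100 most abundant genes of each library held 24.5% ± 0.449 of counts in Nanuq and 24.7% ± 1.97 in Cryotop (SD, n = 3 each, exact permutation p = 1). Cryotop pool 1 was highest at 27.0%, and the other 5 libraries lay between 23.5% and 24.8%. ENSBTAG00000052217 alone held 4.56% of the counts in Cryotop pool 1, and 0.010% to 0.086% in the other 5. The 1000 most abundant genes held 57.8% ± 0.570 and 57.6% ± 0.791 (SD, n = 3 each, exact permutation p = 0.9).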

How the data were processed

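The authors deposited a table of raw, unscaled counts whose 27607 rows are Ensembl gene identifiers and whose columns are libraries. Columns were matched to samples by name, and 0 were left unused. Per the submitters' processing notes, the genome build was ARS-UCD1.2 and the tools were STAR 2.7.0e, Trim Galore 0.6.0, DESeq2 1.26.0 and FastQC. The strand setting, annotation and counting tool were not given in the sources used here. Without strand, overlapping genes cannot be told apart, and near-identical copies may share reads. Per the labels' protocols, RNA was isolated with a PicoPure kit and libraries were made from polyadenylated RNA with NEBNext Ultra II at 10M reads or more. Reads carried no stated molecular identifiers, so limits cover counting error only.

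From the counts of 6 libraries, edgeR 4.0.16 (R 4.3.3) applied filterByExpr, TMM scaling and a robust quasi-likelihood F test with 4 residual degrees of freedom and Benjamini-Hochberg adjustment over 13152 genes, called under 0.05. The biological coefficient of variation was 47.3%. Standard errors came from the fitted weights, and log2 CPM used a prior count of 2. The script was tested on simulated data. DESeq2 1.42.0 and limma 3.58.1 were alternatives, with other scalings, filters, thinned counts, a replicate block and libraries left out; leaving libraries out of the counts of genes seen with 1 device, and thinning in those counts and in the distances, were added after seeing the data. No 2 pools of a device agreed within sampling noise (chi-square per degree of freedom of 21.9 or more).

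The comparison and its measures were chosen with earlier results of these data known. Named genes were, by rule, the 2 higher and 2 lower with the smallest p-values, the most abundant gene of each library and the gene with the narrowest interval. Of 37063 genes in the RefSeq table (ARS-UCD2.0), 0 carry an Ensembl identifier, so 22 gene lists were not tested.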

Additional observations from a re-analysis of the deposited data

How the results depend on the processing

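The count of 0 called genes was 0 in every alternative fit except edgeR without a filter on low counts, with 8, and limma voom with library quality weights, with 1. In the fit as reported a threshold of 0.1 also gave 0. At that threshold DESeq2 (smallest adjusted p 0.0969) and edgeR without Cryotop replicate 3 (0.0644) would call at least 1. The number at an unadjusted p under 0.05 was 469 of 13152 tested genes by edgeR. It became 803 of 17588 without a filter and 200 of 4016 at a mean of at least 50 CPM. DESeq2, run without the filter and with its own size factors, gave 735, with 17558 genes given an adjusted p. limma voom gave 737 of 13152. With 1 library left out the number ran from 221 of 13637 (without Nanuq replicate 2) to 1095 of 13604 (without Cryotop replicate 2). The percentage of these higher in Nanuq was 59.1% and fell under 50% with library size alone (44.9%), a mean of at least 5 CPM (48.7%) and DESeq2 (46.1%). It was 53.3% with DESeq2-style size factors, 51.6% without a filter, 50% at 50 CPM or more, 50.2% thinned, 67.3% by limma voom, 67.4% without both Cryotop pools 1 and 3, and 51.1% to 73.2% with 1 library left out. Genes whose groups do not overlap numbered 1380 of 13152 tested and became 442 of 4016 at a mean of at least 50 CPM. With 1 library left out they ran from 2276 of 13637 (without Nanuq replicate 2) to 3566 of 13604 (without Cryotop replicate 2). They were 6406 of 15065 without both Cryotop pools 1 and 3. Groups of fewer libraries overlap less often by their number alone, so these rises are not read as a difference between devices. The Nanuq minus Cryotop difference in genes detected at equal depth was 1006 and reversed to -122 with 10 counts required, and ran from 528 (without Cryotop replicate 1) to 1809 (without Cryotop replicate 2) with 1 library left out. The difference in the percentage of counts held by the 100 most abundant genes was -0.241 and reversed to 0.202 for 1000 genes, and ran from -0.839 to 0.893 with 1 library left out. The log2 fold change of ENSBTAG00000052217 ran from -5.21 without Cryotop replicate 2 to 1.34, reversed, without Cryotop replicate 1. It was 2.64 without both Cryotop pools 1 and 3. Apart from what these settings construct, the cause was not tested. Under 5 CPM 0 genes were bounded within 2-fold, and the parts of depth and of spread between pools in this were not separated.

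The labels do not say whether a replicate number marks a shared production, so pools were not treated as paired in the main fit. Deviations from the device means of same-numbered pools correlated at 0.132, 0.0185 and 0.0701 over genes at 50 CPM or more. Pairs of unlike number ran from -0.182 to 0.162. Cryotop pools 1 and 3 each correlated best with the Nanuq pool of the same number, and Cryotop pool 2 with Nanuq pool 3 (0.162). A replicate block in the edgeR fit left 0 genes called and put 536 of 13152 at an unadjusted p under 0.05. Of these 69.6% were higher in Nanuq.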
